A study of Rattus norvegicus with 3 samples.

Results

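Claudins are the membrane proteins of the tight junction that set which ions and how much water pass between the cells of an epithelium. In the kidney each tubule segment carries its own mixture of them, so that the path between cells lets cations through in some segments and holds them back in others. In the thick ascending limb this path is known for the reabsorption of sodium, calcium and magnesium, and inherited loss of its claudins causes wasting or retention of these ions. The genes described here are 10 claudins known from tubule epithelium: Cldn1, Cldn2, Cldn3, Cldn4, Cldn7, Cldn8, Cldn10, Cldn14, Cldn16 and Cldn19. They were chosen by name, as every probe set whose only gene symbol in the platform annotation is 1 of these, which gave 12 probe sets for 10 of the 14217 genes measured. Cldn1 had 3 probe sets and each of the other 9 genes had 1.

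The data are 3 Affymetrix arrays of the rat medullary thick ascending limb (mTAL), all of 1 group, with no other segment, genotype or treatment for comparison. The donors were male Sprague-Dawley rats of 7 to 8 weeks. All of them had furosemide (1 mg), a loop diuretic that blocks the main salt entry of this segment, and heparin (250 u) in the peritoneum 30 min before death. Outer medulla was digested with collagenase and hyaluronidase for 60 min and the tubules were collected on 33.3% Percoll, so the preparation is an enriched fraction and not a sort of single cells. The labels do not tell whether replicates 1, 2 and 3 are separate animals, so the p-values rest on a spread between samples that could be technical.

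The signal of a probe set is given on a linear scale, on which each array had a mean of 999.99 after the lowest and highest 2% were left out. A probe set was called detected when its log2 signal lay above a cutoff set on each array, below which 95% of 69 genes typical of other organs fell (a signal of 416, 354 and 393 on replicates 1, 2 and 3), by limma's one-sided test with Benjamini-Hochberg adjustment over 20826 probe sets. Probe sets differ in how strongly they bind their transcript, so signals of different claudins are not put in an order of abundance. All 11 measured markers of the thick ascending limb were detected, with Umod at 57573, 64784 and 48750. Of all genes 52.6% had a detected probe set. The detected markers of other segments numbered 5 of 7 for the thin limb, 5 of 11 for the principal cell of the collecting duct, and 4 of 22 for the proximal tubule. Outside the tubule, the detected markers numbered 9 of 10 for endothelium and 3 of 7 for the podocyte. They numbered 2 of 11 for fibroblasts and mural cells and 2 of 12 for leukocytes. A call also depends on the spread between arrays, so a low count does not mean that signal was absent. Kap of the proximal tubule had signals of 169, 7164 and 26093 and was not detected (limma adjusted p = 0.162). The median proximal tubule marker lay 0.33 log2 units above the cutoff. By limma, 0 of 6 intercalated cell genes were called, and 0 of 6 genes of the distal convoluted and connecting tubule. At an unadjusted p under 0.05 the counts were 1 and 0. For Actb, the control probe set near the 3' end exceeded that near the 5' end by 1.48, 1.18 and 1.95 log2 units on replicates 1, 2 and 3, a difference that grows as RNA degrades. For Gapdh the difference was smaller, at 0.51, 0.43 and 0.60.

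Of the 10 claudin genes 8 were detected, and the others were Cldn1 and Cldn14. The share over all genes was 52.6%. Counted by probe set, 8 of 12 were detected against 44.3% of all probe sets, and the same count of 8 lay above the cutoff on every array, against 47.4%. The count of 8 genes became 7 without replicate 2 and 7 without replicate 3, in both cases through Cldn2.

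**Figure D1:**
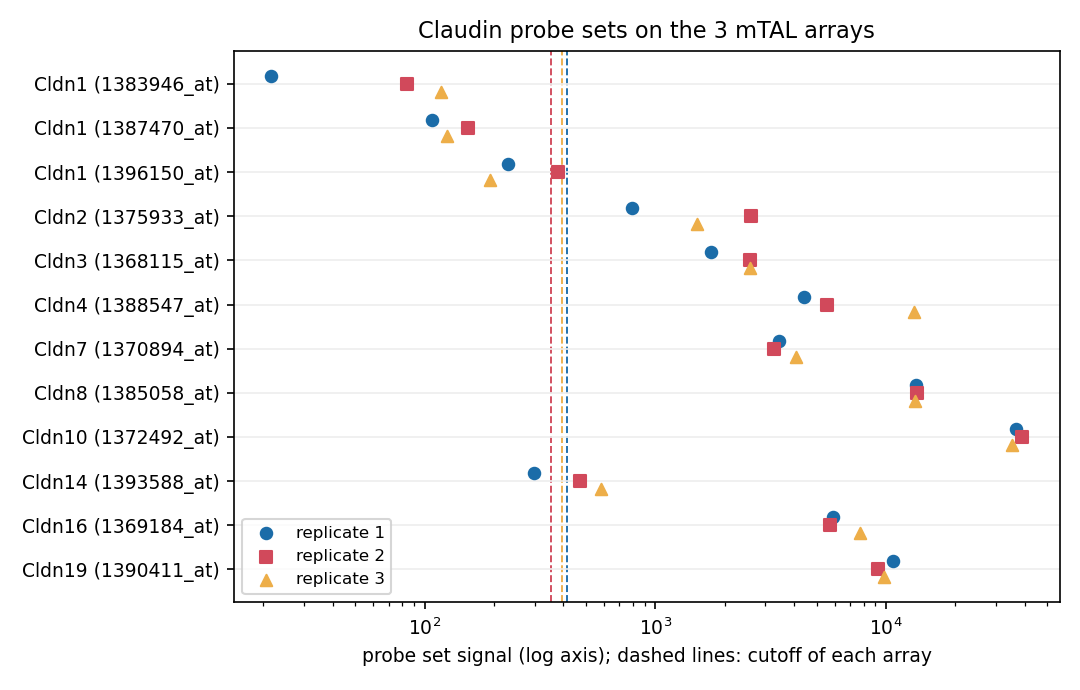
Signal of each of the 12 claudin probe sets on the 3 arrays (log axis), with the cutoff of each array as a dashed line of the same colour. The probe sets of Cldn1 lie below the cutoffs, apart from 1396150_at on replicate 2, Cldn14 straddles them at 298 to 581, and the rest lie above them on all arrays.

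Cldn10, whose 10b isoform is the main cation pore of the thick ascending limb, was measured by probe set 1372492_at and gave signals of 36726, 38948 and 35085 on replicates 1, 2 and 3. The arrays lay within 1.11-fold of each other. The mean log2 signal was 6.57 ± 0.14 above the cutoff (limma's moderated SE, n = 3), or 95.3-fold (limma adjusted p = 0.00018). Every SE given here is of log2 signal minus the array's own cutoff, so differences in cutoff between arrays enter it. Its variance is drawn towards that of all probe sets. The gene also has an isoform known from the proximal tubule, and the single probe set was not resolved into isoforms here. Markers of the proximal tubule were higher on replicate 3 than on replicate 1 in 22 of 22 genes, by a median of 4.28 log2 units with each array centred on its median, while Cldn10 differed by -0.11 between the same arrays. The part of the proximal tubule in the Cldn10 signal was not tested.

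Cldn16 and Cldn19 encode partner proteins of the cation path whose loss in humans causes renal wasting of magnesium and calcium. Cldn16 (1369184_at) had signals of 5901, 5706 and 7705, highest on replicate 3, and lay 4.04 ± 0.15 log2 units above the cutoff (SE, adjusted p = 0.000204). Cldn19 (1390411_at) had signals of 10775, 9239 and 9807, highest on replicate 1, and lay 4.68 ± 0.12 above it (adjusted p = 0.00018). The partners were thus highest on different arrays, and replicate 3 minus replicate 1, with arrays centred, was 0.34 for Cldn16 and -0.18 for Cldn19. Both differences are below 2-fold, and each array is 1 preparation, so neither has a test. The markers of the thick ascending limb, a list that holds no claudin, differed by a median of -0.29, with 3 of 11 higher on replicate 3.

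Cldn14, the claudin known to bind Cldn16 and close the cation path when the calcium-sensing receptor is active, had signals (1393588_at) of 298, 473 and 581. It lay below the cutoff on replicate 1 and above it on replicates 2 and 3. Its log2 signal was 0.17 ± 0.27 above the cutoff (SE, adjusted p = 0.573), so it was not detected. This call turned on the cutoff. Against a lower cutoff, the 90th percentile, Cldn14 was 1.12 above it (adjusted p = 0.0123), and with Myh1 added to the other-tissue genes its difference was -0.39 (adjusted p = 1). A gene without a call may still be expressed at a level too low for this cutoff.

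Cldn2 forms a pore for cations and water in the proximal tubule and the first part of the thin descending limb. Its signals (1375933_at) were 793, 2611 and 1519. Replicate 2 was the highest, 3.29-fold above replicate 1, and all 3 arrays lay above their cutoffs. The log2 signal was 1.92 ± 0.44 above the cutoff (SE, adjusted p = 0.0184), and the adjusted p was 0.0517 without replicate 2 and 0.0708 without replicate 3. Thin limb markers were also highest on replicate 2, where 7 of 7 lay above the mean of the other arrays by a median of 1.28 log2 units, beside 1.16 for Cldn2. Their summed signal was 29305, 76764 and 43391 on replicates 1, 2 and 3. Cryab, the most strongly hybridising of them, had signals of 14366, 27336 and 17275 and deviated by 0.71 on replicate 2. The water channel Aqp1, which came next, had signals of 7795, 28878 and 15354 and deviated by 1.31. Proximal tubule markers followed another order, with a summed signal of 9897, 30465 and 87078. On replicate 3 they deviated by 2.99 beside 0.09 for Cldn2. Replicate 2 minus replicate 1, with arrays centred, was 1.61 for Cldn2. By that measure 7 of 7 thin limb markers were higher, by a median of 1.67, and 22 of 22 proximal tubule markers, by 2.17. Endothelial markers were higher in 10 of 10 (0.76), and fibroblast and mural cell markers in 9 of 11 (1.28). Of the thick ascending limb markers 1 of 11 was higher, with a median of -0.27. The lowest signals were 12.5 in the thin limb list and 4.85 in the proximal tubule list, below the cutoff of every array. The part of other segments in the Cldn2 signal was not tested, and in whole preparations fewer cells of a type and less RNA per cell cannot be told apart.

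Cldn4 and Cldn8 are known as partners in the collecting duct, where they make a path for chloride and a barrier to sodium, and Cldn8 brings Cldn4 to the junction. Their signals behaved differently across the arrays. Cldn4 (1388547_at) had signals of 4397, 5573 and 13237, with replicate 3 at 3.01-fold replicate 1, and lay 4.15 ± 0.39 log2 units above the cutoff (SE, adjusted p = 0.00131). Cldn8 (1385058_at) had signals of 13554, 13686 and 13411, within 1.02-fold of each other, and lay 5.13 ± 0.13 above it (adjusted p = 0.00018). Cldn4 was also detected without replicate 3, at 3.69 above the cutoff (adjusted p = 0.00423).

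Principal cell markers were higher on replicate 3 as well. There 10 of 11 lay above the mean of the other arrays, by a median of 1.36 log2 units, beside 1.43 for Cldn4 and -0.02 for Cldn8. The summed signal of the list was 12203, 17348 and 27200 on replicates 1, 2 and 3. Its most strongly hybridising gene, Tfcp2l1, had signals of 6184, 6545 and 9186 and deviated by 0.54 on replicate 3. The next, the water channel Aqp2, which defines the principal cell, had signals of 1433, 3695 and 7803 and deviated by 1.77. The lowest signal in the list was 13.5, below the cutoff of every array. Other lists were higher on replicate 3 too: proximal tubule markers in 22 of 22 genes, by a median of 2.99, and intercalated cell markers in 6 of 6, by 0.73. The part of any of these cells in the Cldn4 signal was not tested. The Actb and Gapdh differences given above were also highest on replicate 3, and their part was not tested either.

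Cldn3 and Cldn7 are claudins of the distal nephron and collecting duct, of which Cldn3 is known to tighten the path between cells and is also found in the thick ascending limb. Cldn3 (1368115_at) had signals of 1748, 2586 and 2563, so that replicate 1 lay below the other arrays, and it was 2.55 ± 0.22 log2 units above the cutoff (SE, adjusted p = 0.00103). With the cutoff raised to the 99th percentile of these other-tissue genes it was 0.70 higher (adjusted p = 0.0971) and no longer detected. Cldn7 (1370894_at) had signals of 3440, 3264 and 4067 and was 3.21 ± 0.14 above the cutoff (adjusted p = 0.000223). On replicate 3 they deviated by 0.28 and 0.29 log2 units, less than Cldn4 and the median principal cell marker.

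**Figure D2:**
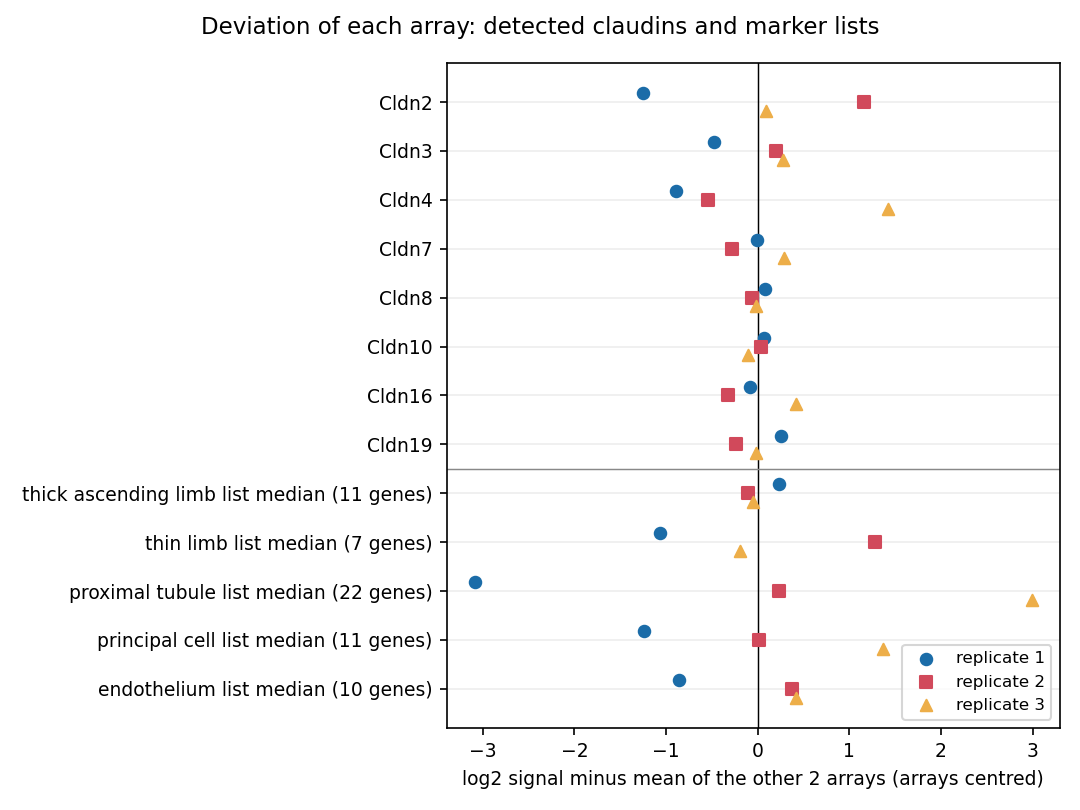
Log2 signal of each array minus the mean of the other 2, with arrays centred on their median probe set, for the 8 detected claudins (top) and for the median gene of 5 marker lists (bottom). Cldn4 and the principal cell list stand out to the right on replicate 3 (1.43 and 1.36), where the proximal tubule list lies farther right (2.99). Cldn2 and the thin limb list stand out on replicate 2 (1.16 and 1.28), and Cldn8 and Cldn10 lie near 0 on all arrays.

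Cldn1, a barrier claudin known in the kidney from the cells lining Bowman's capsule, was not detected by any of its 3 probe sets. The probe set 1396150_at had signals of 229, 378 and 191 and exceeded the cutoff on replicate 2 only, 1387470_at had signals of 107, 154 and 125, and 1383946_at had signals of 21.7, 83.9 and 117. The limma adjusted p was 1 for each of them. The probe sets also disagreed in pattern, since replicate 3 was 5.41-fold, 1.17-fold and 0.835-fold replicate 1 for 1383946_at, 1387470_at and 1396150_at. These folds lie between signals below the cutoff and do not measure a change.

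The 8 detected claudins were mostly alike on all arrays. In 6 of them the highest array was less than 1.5-fold the lowest, and the exceptions were Cldn2 and Cldn4. Cldn4 alone was more than 2-fold higher on replicate 3 than on replicate 1, a size passed by 1.29% of detected probe sets, and Cldn2 alone was more than 2-fold higher on replicate 2 than on replicate 1, passed by 0.921%. Cldn4 was also more than 2-fold higher on replicate 3 than on replicate 2, as were 0.715% of detected probe sets. For replicate 3 against 1, 2 against 1 and 3 against 2, 0 of 8 claudins were lower by more than 2-fold, beside 0.726%, 0.444% and 0.434% of detected probe sets. Whatever the size, 5 of the 8 were higher on replicate 3 than on replicate 1, beside 37.1%, and over all 12 claudin probe sets 8 were, beside 42.2% of all probe sets. The SD of log2 signal was 0.86 for Cldn2 and 0.84 for Cldn4. It was 0.32 for Cldn3, 0.24 for Cldn16, 0.17 for Cldn7, 0.11 for Cldn19, 0.08 for Cldn10 and 0.015 for Cldn8. The median over the 10748 probe sets with a mean above the cutoff was 0.17, and 4 of the 8 claudins lay below it, against 55.0% of detected probe sets. Only 0.577% of the probe sets above the cutoff had a smaller SD than Cldn8, whereas 98.2% had a smaller SD than Cldn2 and 98.0% a smaller one than Cldn4. These SDs are of signals without centring. The log2 range of Cldn8 was 0.029 without centring and 0.096 with arrays centred.

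**Figure D3:**
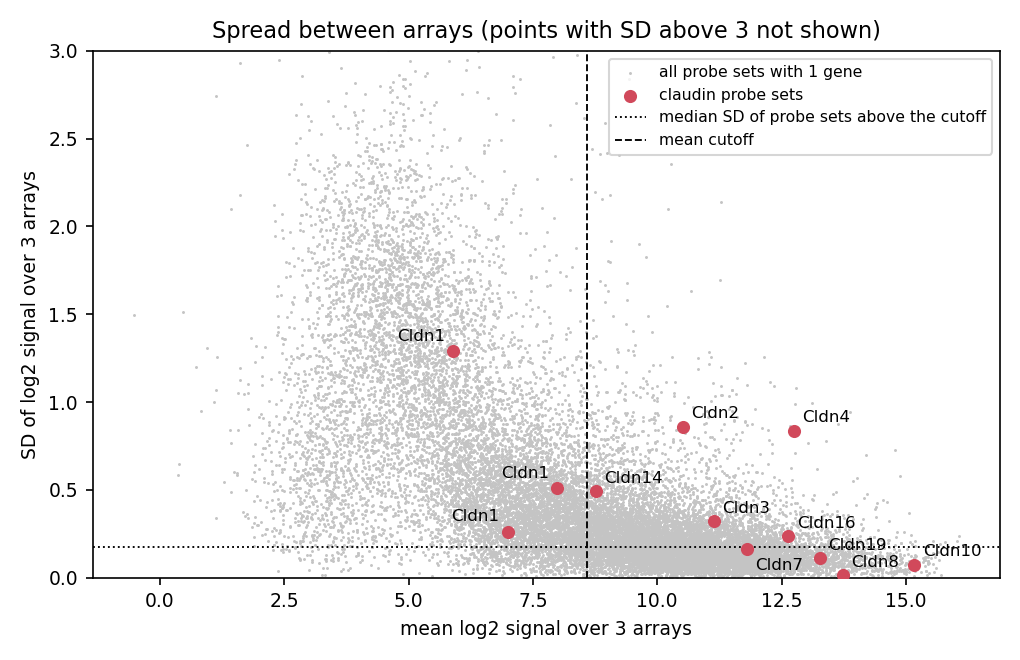
SD of log2 signal over the 3 arrays against the mean log2 signal, for all 20826 probe sets with 1 gene (grey) and the 12 claudin probe sets (red). Cldn2 and Cldn4 lie far above the dotted median SD of 0.17 for probe sets above the cutoff, and Cldn8 lies close to the bottom of the plot.

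Genes whose pattern over the 3 arrays was closest to that of the most variable detected claudins were sought among 7457 detected genes outside the family, by the Euclidean distance of centred log2 values. For Cldn2 they were the uncharacterised LOC100910973 (956, 2904 and 1804), Arhgdib (716, 2281 and 1464) and Cald1 (1629, 5618 and 2945), the actin-binding protein caldesmon, at distances of 0.09, 0.10 and 0.11. For Cldn4 they were the glutathione peroxidase Gpx2 (852, 1039 and 2386), Smim24 (819, 1086 and 2311) and the stress-inducible Gadd45b (5405, 7103 and 15118), at distances of 0.07, 0.11 and 0.11. For Cldn3 they were Rhbdf1, Trim25 and Scpep1, at distances of 0.02, 0.02 and 0.03. None of these genes stands in the marker lists used here, and 3 arrays give few values by which to tell patterns apart.

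Some of the claudins are neighbours in the genome, which allows adjacent genes to be set side by side. In the rat assembly GRCr8, Cldn16 and Cldn1 lie on chromosome 11 with their starts facing each other and 1 pseudogene between them. The signal of Cldn16 was 16.5-fold its cutoff, and no probe set of Cldn1 was detected. Cldn3 and Cldn4 lie on chromosome 12 with 2 pseudogenes and no protein-coding gene between them. Replicate 3 was 1.47-fold replicate 1 for Cldn3 and 3.01-fold for Cldn4.

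RefSeq's promoter table held 8 of the 10 genes, and Cldn2 and Cldn4 were not among them. Shown here, because they belong to the neighbours that differed most plainly against the cutoff and to the cation pore of the segment, are the 250 bases before the annotated start of Cldn10 (chr15:102269608-102269857, plus strand), Cldn16 (chr11:87814397-87814646, minus strand) and Cldn1 (chr11:87926126-87926375, plus strand), in GRCr8, written 5′ to 3′ along the gene. Capitals mark matches, on either strand, to the TATA box TATAAA, the box CCAAT, the GC box GGGCGG, the half-site GTTAAT of hepatocyte nuclear factor 1 and the grainyhead motif AACNGGTT.
Cldn10: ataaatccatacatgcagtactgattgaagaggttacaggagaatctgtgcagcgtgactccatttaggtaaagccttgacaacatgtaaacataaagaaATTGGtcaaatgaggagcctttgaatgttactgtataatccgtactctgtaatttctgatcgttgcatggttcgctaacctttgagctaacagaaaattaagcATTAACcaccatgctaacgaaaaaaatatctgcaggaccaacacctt
Cldn16: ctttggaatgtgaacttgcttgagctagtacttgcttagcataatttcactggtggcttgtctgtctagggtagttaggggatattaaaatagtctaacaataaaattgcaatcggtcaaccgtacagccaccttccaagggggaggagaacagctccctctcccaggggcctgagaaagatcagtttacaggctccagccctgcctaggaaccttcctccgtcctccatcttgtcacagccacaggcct
Cldn1: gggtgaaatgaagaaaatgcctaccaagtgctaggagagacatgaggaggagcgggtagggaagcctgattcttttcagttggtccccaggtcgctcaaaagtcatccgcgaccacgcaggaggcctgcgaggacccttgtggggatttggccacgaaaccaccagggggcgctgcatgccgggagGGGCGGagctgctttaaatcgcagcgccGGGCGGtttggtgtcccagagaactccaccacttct

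The window of Cldn10 held 38.0% G and C bases, that of Cldn16 49.2% and that of Cldn1 59.2%, beside a median of 51.2% over all 33469 windows in the table. The Cldn10 window held a CCAAT match beginning 150 bases before the start and a GTTAAT match beginning 47 bases before it. CCAAT was found in 34.0% and GTTAAT in 6.45% of all windows. The Cldn1 window held GGGCGG beginning 64 and 36 bases before the start, a motif found in 30.5% of windows, and the Cldn16 window held none of these motifs. The matches do not overlap each other. TATAAA, found in 12.9% of all windows, and AACNGGTT, found in 1.76%, were in none of the 8 claudin windows. A match is a description of the letters and not a binding site, and the annotated start was not checked against the transcripts in these samples. Which isoform of Cldn10 its window precedes was not resolved here.

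Of the rest of the family 7 genes were measured, counting the claudin domain gene Cldnd1, and 3 were detected, beside 52.6% of all genes. Cldnd1 had signals of 3719, 4129 and 4634 in its stronger probe set (adjusted p = 0.000241) and of 11.6, 28.4 and 44.3 in the other. Cldn12 had signals of 1115, 1024 and 1522 (adjusted p = 0.00174) and Cldn6 of 729, 646 and 804 (adjusted p = 0.00436), and neither was detected against the 99th percentile. With Myh1 among the other-tissue genes Cldn6 was 0.34 above the cutoff and not detected (adjusted p = 0.103). Cldn5, the claudin of endothelium, had signals of 203, 1824 and 326. It exceeded the cutoff on replicate 2 only and was not detected (adjusted p = 0.672). Endothelial markers lay above the mean of the other arrays on replicate 2 in 10 of 10 genes, by a median of 0.38 log2 units, and on replicate 3 in 9 of 10, by 0.41. Their summed signal was 16614, 28133 and 25902 on replicates 1, 2 and 3, and the lowest signal in the list was 212. Their part in the Cldn5 signal was not tested. Cldn11, Cldn18 and Cldn22 were not detected by any probe set, with signals from 3.79 to 297.

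Of 22 measured tight junction partners 17 were detected, against 52.6% of all genes. Counted by probe set, 26 of 48 were detected, against 44.3% of all probe sets. The median of the partner genes lay 2.84 log2 units above the cutoff, beside 0.78 over all genes. For the 10 claudins, each by its probe set of highest mean, the median was 3.62. By the probe set of highest mean, the highest signals were those of Cgnl1, or paracingulin (30672, 33490 and 33490), and of Ocln, or occludin (20403, 16339 and 18372). Next were the polarity gene Pard6b (6076, 6098 and 6466) and the scaffold Tjp1, or ZO-1 (4472, 5530 and 4881). These probe sets were all detected, with limma adjusted p from 0.00018 to 0.000247. A weaker probe set of Ocln was also detected (6717, 4437 and 2934, adjusted p = 0.000795), with replicate 3 at 0.437-fold replicate 1. The weaker probe set of Cgnl1 was detected too (2570, 3609 and 2869, adjusted p = 0.000555), and that of Tjp1 was not (97.2, 134 and 42.7). The lowest were Ildr2 (33.7, 75.5 and 11.4), known from tricellular junctions, and the scaffold Tjp3, or ZO-3 (10.6, 22.8 and 30.3). Of the 22 partners 10 were higher on replicate 3 than on replicate 1, beside 45.6% of all genes, with a median difference of -0.01 log2 units. The median SD was 0.17, beside 0.28 for the 10 claudins. Among the detected partners Jam2, an adhesion molecule of the junction named after its values were seen, had signals of 618, 1695 and 987 in its strongest probe set. This was its only detected probe set and was highest on replicate 2, 2.74-fold above replicate 1. Its other probe sets lay below the cutoff on every array. Of these, the probe set with signals of 320, 158 and 129 was highest on replicate 1, and the rest were highest on replicate 2.

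**Figure D4:**
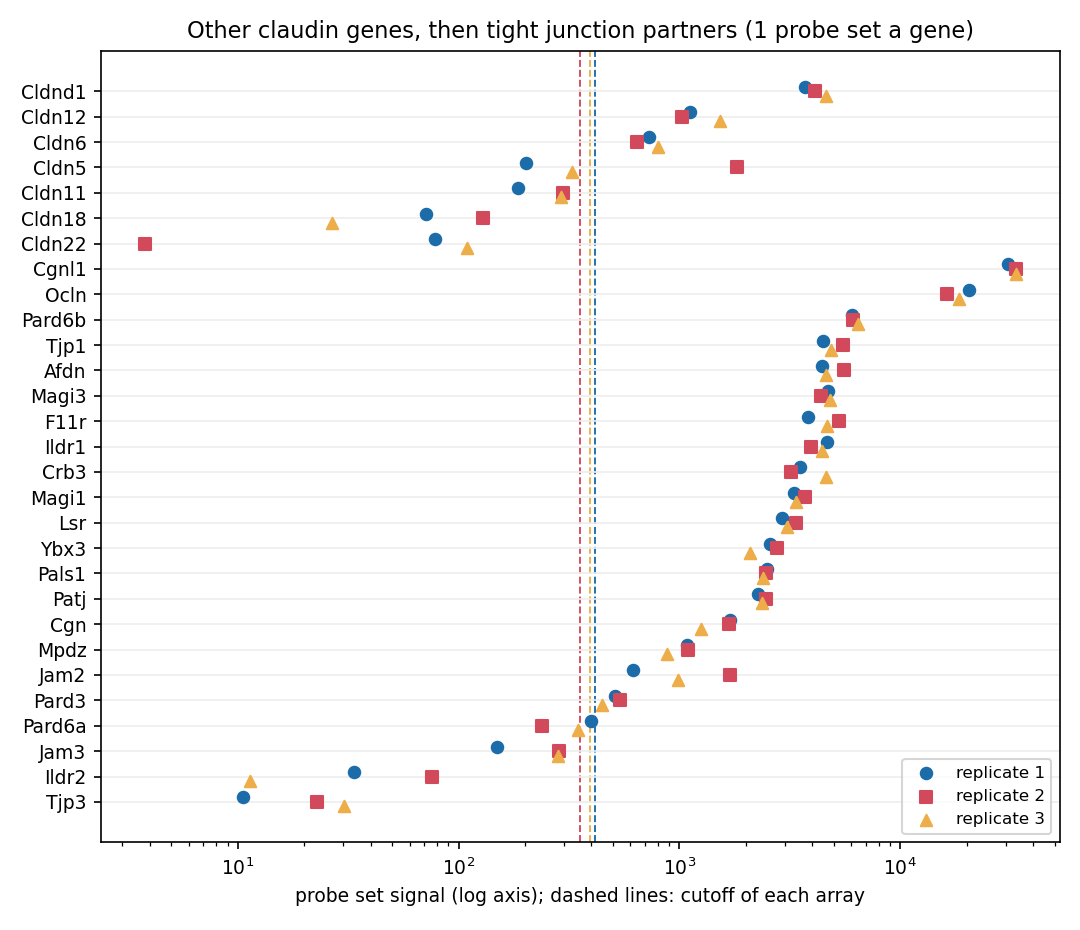
Signals on the 3 arrays (log axis) of the 7 other claudin genes and then of the 22 tight junction partners, each by its probe set of highest mean signal, with the cutoff of each array as a dashed line. Cldn5 is above its cutoff on replicate 2 only, and Cgnl1 and Ocln have the highest signals among the partners.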

How the data were processed

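Total RNA from 3 preparations of rat mTAL was labelled with biotin and put on Affymetrix arrays, as the labels' protocols state. The authors deposited linear intensities, 1 for each probe set on each array. The summary method and software are not given in the sources used here. All values were above 0, and log2 values were formed without a pseudocount or rescaling. The 20826 probe sets that the platform annotation gives 1 gene were used, and 436 with several genes and 9780 with none were left out. The cutoff was computed on each array from 69 of 75 listed other-tissue genes, each by its probe set of highest mean log2 signal. All probe sets were fitted together in limma 3.58.1 (R 4.3.3, lmFit and eBayes, one-sided, threshold 0.05). The limma test takes the cutoff as known and leaves out its own error. The fit was also run on simulated data with independent noise. That simulation placed no probe set at the cutoff and held no effect shared by an array, so it does not check the calls made here. A gene was detected when at least 1 of its probe sets was. Deviations between arrays were taken after each array was centred on its median. The number of arrays limits the precision. Members, lists and tests were chosen with earlier results of these data known, and Myh1, whose high signal had been seen, was kept out of the other-tissue genes and put back as an alternative. The text names all claudins, the 4 detected partners of highest and the 2 of lowest signal, the 2 highest genes of a marker list where they are needed, and the 3 nearest patterns of the 3 most variable detected claudins. Protein sequences were not used here.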

Additional observations from a re-analysis of the deposited data

How the results depend on the processing

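The counts of 8 detected claudin genes and 8 detected claudin probe sets ranged from 6 genes with the cutoff at the 99th percentile, where Cldn2 (0.07 above the cutoff) and Cldn3 were lost, to 10 genes and 11 probe sets where the brightest TrpnX probe set, a control with no target in the sample, was the cutoff. They were 8 with quantile normalization, a common 75th percentile, a pseudocount of 16, Myh1 among the other-tissue genes, 1 probe set a gene, and only probe sets at or above the median signal. Without 1 replicate they ran from 7 to 8. The 3 detected genes of the rest of the family became 1 at the 99th percentile, where Cldn12 lay at -0.21 and Cldn6 at -0.95, and 5 at the TrpnX cutoff; with Myh1 added Cldn6 was not detected (adjusted p = 0.103). The tight junction partners ran from 14 to 20. Which cutoff is used therefore decides Cldn1, Cldn2, Cldn3 and Cldn14, and left the calls of Cldn4, Cldn7, Cldn8, Cldn10, Cldn16 and Cldn19 as they were. Replicate 3 lay above replicate 1 in 8 of 12 claudin probe sets under every scaling tried. The median claudin SD of 0.29 ran from 0.22 to 0.31, under alternatives chosen after seeing the data. No paired analysis was possible because there is 1 group. The cutoff rests on few genes, since it lies between the signals of Ins1 and Lhb on replicate 1 and of Lhb and Tnni2 on replicates 2 and 3, genes named after their values were seen.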
